A study of Mus musculus with 22 samples.

Results

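The 10 genes described here are the enzymes that rebuild NAD in salvage, the mitochondrial transhydrogenase and part of the sirtuin family: Nmrk1, Nmrk2, Nampt, Naprt, Nmnat1, Nmnat3, Nnt, Sirt1, Sirt3 and Sirt5. They were chosen by name and found by matching Ensembl IDs to symbols in the GENCODE annotation of mm10, 10 of the 49670 genes in the right ventricle (RV) table and of the 49671 in the left ventricle (LV) table. All 10 had a mean normalized count of at least 10 in both tables and were tested in both. The study banded the pulmonary artery of CD1 mice, an outbred strain, on postnatal day 1. This neonatal pulmonary artery banding (nPAB) was sized with a 30-gauge needle and loads the RV with pressure, while the LV pumps into the unbanded aorta. Hearts were taken 7 days after surgery, and bulk RNA was sequenced from the RV and LV of 6 nPAB mice and of 5 Sham-operated mice. All 22 libraries carry batch label 1, and no allele or drug is named for any group. Sexes of the mice, litters and pressure measurements are not given in the labels.

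NAD is the electron carrier of energy metabolism and also a substrate that sirtuins and ADP-ribosyltransferases break down to nicotinamide. Cells therefore rebuild it continuously. Nampt turns nicotinamide into nicotinamide mononucleotide and limits the rate of the main salvage route, Naprt starts the route from nicotinic acid, and Nmrk1 and Nmrk2 phosphorylate nicotinamide riboside. The Nmnat enzymes then attach the adenylyl group that completes NAD. Nmrk2 is largely restricted to striated muscle and is known to rise in mouse models of dilated cardiomyopathy. Heart muscle is rich in mitochondria, where Nnt passes electrons from NADH to NADP, and where Sirt3 and Sirt5 remove acyl groups from proteins.

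Depth, as whole reads regained from the normalized values, was 7.11 to 11.3 M per library. It averaged 9.47 M in RV nPAB against 8.61 M in RV Sham, and 9.73 M in LV nPAB against 8.10 M in LV Sham. The ranges of nPAB and Sham overlapped in both ventricles. Xist and Ddx3y gave 3 female and 3 male libraries in each nPAB group and 2 female and 3 male libraries in each Sham group. In 9 mice both libraries were of 1 sex. Of those labelled nPAB mouse 6, the RV library was female and the LV library male. For nPAB mouse 7 the RV library was male and the LV library female. Results were therefore also computed without these 2 mice. The 7 cardiomyocyte markers summed to 40964 to 52193 RPM (reads scaled to the library total) in RV nPAB against 46705 to 53008 in RV Sham, and to 46149 to 60382 in LV nPAB against 49246 to 53577 in LV Sham. The 7 atrial markers summed to 362 to 1838 RPM in RV nPAB against 46.1 to 331 in RV Sham, and to 141 to 673 in LV nPAB against 98.9 to 207 in LV Sham. Without Nppa, which ventricular muscle also makes under load, the other 6 summed to 82.9 to 1115 in RV nPAB against 43.6 to 325 in RV Sham. Their range in LV nPAB was 53.9 to 242, against 81.4 to 193 in LV Sham. Bmp10, a defining atrial gene, had 0 to 109 normalized counts in RV nPAB against 0 to 17.5 in RV Sham, and was at 0 in 2 of 11 RV libraries. In the LV it reached at most 4.87 and was at 0 in 7 of 11 libraries.

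Of the 10 genes, 1 rose and 1 fell in the RV of nPAB mice against Sham, and 8 did not pass the test. Nmrk2, the muscle nicotinamide riboside kinase, rose 11.8-fold, while Sirt1, the nuclear deacetylase, fell to about 0.67 of its Sham level. Tests were limma fits across all genes on log2 of the normalized count plus 1, adjusted by Benjamini-Hochberg, and genes under 0.05 were called. By the same test 22.0% of all 13660 genes passed in the RV, 11.1% higher and 10.8% lower in nPAB. In the LV 1 of the 10 rose (Nmrk2) and 1 fell (Nnt), against 9.31% of all 13528 genes, 4.76% higher and 4.55% lower in nPAB. The median log2 fold change of the 10 genes was -0.18 in the RV and -0.14 in the LV, beside medians of 0.00 and -0.01 over all genes tested. With 2 of 10 genes called, the share was close to the background in the RV and above it in the LV by about 1 gene. The LV count was 0 without nPAB mice 6 and 7, where 4.93% of all genes passed. Because the 10 genes were chosen with earlier results of these data known, these shares only describe them.

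**Figure D1:**
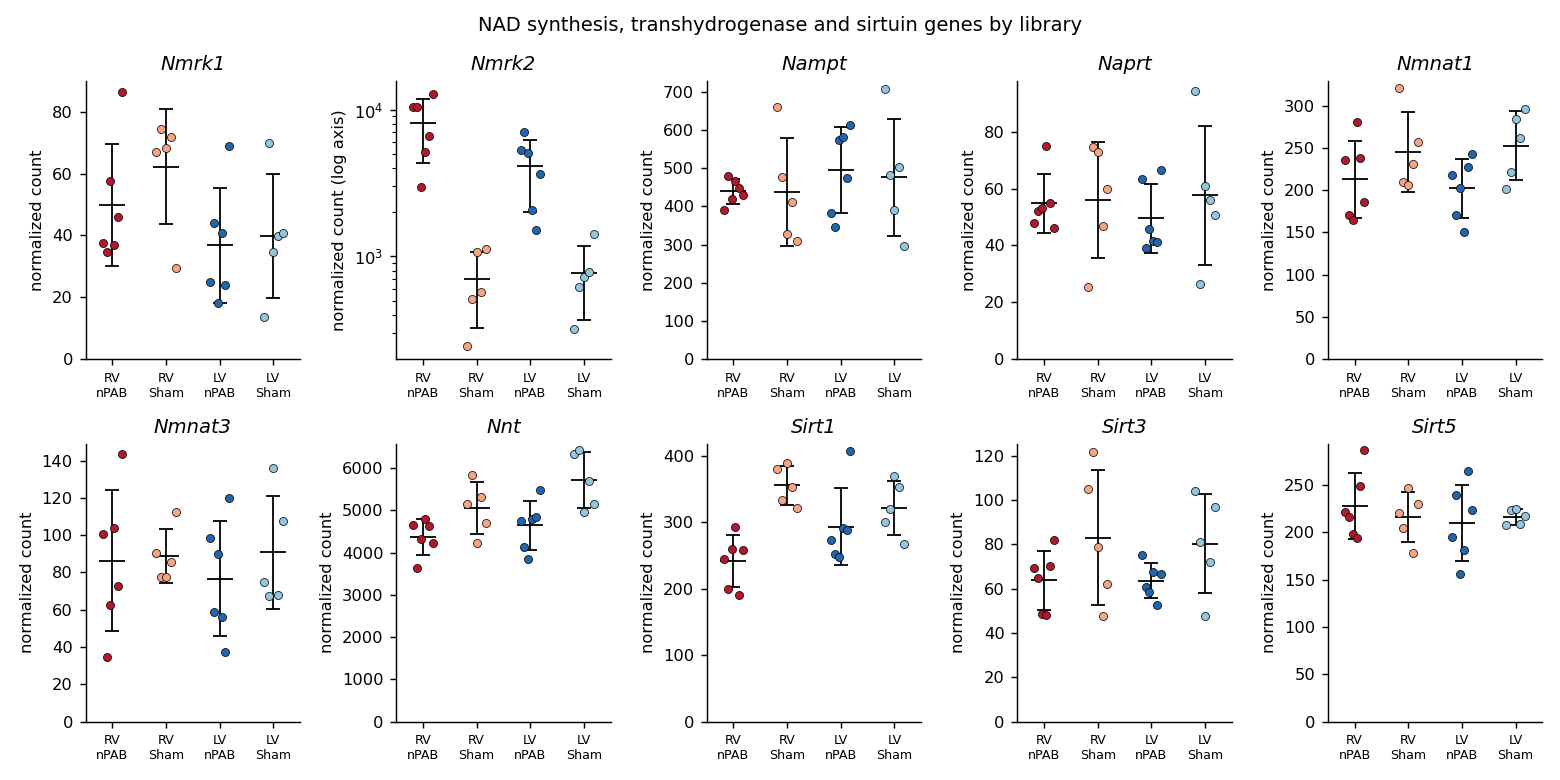
Normalized counts of the 10 genes in every library, with points for libraries and black lines for the group mean and SD (n = 6 nPAB and n = 5 Sham in each ventricle; Nmrk2 on a log axis, all others from 0). Nmrk2 separates nPAB from Sham in both ventricles and Sirt1 in the RV, whereas the nPAB and Sham libraries of the other 8 genes overlap in both ventricles.

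The Nmrk2 and Sirt1 promoters are shown because these 2 genes passed the test in the RV. Each run is the 250 bases before the RefSeq transcription start on the minus strand of GRCm38, the assembly named mm10, printed 5′ to 3′. Capitals mark the E-box CACGTG, a motif bound by basic helix-loop-helix factors that reads the same on both strands.
Nmrk2, chr10:81202038-81202287: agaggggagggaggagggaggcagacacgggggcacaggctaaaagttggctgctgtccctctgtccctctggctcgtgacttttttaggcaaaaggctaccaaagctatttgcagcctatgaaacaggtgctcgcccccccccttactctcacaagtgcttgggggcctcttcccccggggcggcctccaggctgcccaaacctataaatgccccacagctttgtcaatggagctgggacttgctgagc
Sirt1, chr10:63339036-63339285: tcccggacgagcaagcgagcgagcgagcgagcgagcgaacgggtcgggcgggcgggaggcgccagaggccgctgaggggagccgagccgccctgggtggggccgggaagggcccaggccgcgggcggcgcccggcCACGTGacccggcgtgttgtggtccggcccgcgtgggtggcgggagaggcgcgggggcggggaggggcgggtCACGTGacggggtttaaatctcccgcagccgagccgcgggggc
The Sirt1 window holds 2 E-boxes, whose first bases lie at -115 and -43 from the start site, and the Nmrk2 window holds none. An E-box is present in 6.02% of the 32851 promoter windows of the same length. GC content is 58.8% in the Nmrk2 window and 79.2% in the Sirt1 window. A direct-repeat PPAR element, searched as an exact match on both strands, is in 0 of the 8 genes with a window, and 0.0335% of all windows hold one. Naprt and Nnt had no entry.

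Nmrk2 (ENSMUSG00000004939, chr10:81198170-81202051, minus strand, protein coding) had 10400, 10390, 2970, 5114, 6606 and 12817 normalized counts in the RV of nPAB mice 5, 6, 7, 8, 10 and 11, against 244, 510, 1069, 572 and 1116 in the RV of Sham mice 9, 10, 11, 12 and 13. Every nPAB value lay above every Sham value, the lowest nPAB library being that of mouse 7 and the highest Sham library that of mouse 13. The groups averaged 8049 ± 3748 in nPAB (SD, n = 6) and 702 ± 377 in Sham (SD, n = 5). The log2 fold change was 3.56 ± 0.50 (SE; 95% interval 2.42 to 4.69, limma adjusted p = 0.00109), the 20th largest rise of 13660 genes tested. Of the 10 genes, 2 (Nmrk2 and Sirt1) had nPAB and Sham libraries that did not overlap in the RV, beside 12.9% of all genes.

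In the LV Nmrk2 was at 5289, 7006, 5098, 2064, 1525 and 3630 normalized counts in nPAB mice 5, 6, 7, 8, 10 and 11, against 319, 618, 725, 782 and 1411 in Sham mice 9, 10, 11, 12 and 13. The groups again did not overlap, for Nmrk2 alone of the 10 genes and for 6.53% of all genes in the LV, although the lowest nPAB value, of mouse 10, lay close above the highest Sham value, of mouse 13. On the log2 scale the LV rise was 2.38 ± 0.49 (SE; 95% interval 1.27 to 3.48, limma adjusted p = 0.0173), the 22nd largest rise of 13528 genes. Without nPAB mice 6 and 7 it was 2.01 and no longer passed (limma adjusted p = 0.0775). That fit held 4 nPAB mice and called 4.93% of all LV genes, in place of 9.31%. The RV rise still passed without these 2 mice (log2 fold change 3.74, limma adjusted p = 0.00254).

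Among Sham mice, mouse 9 had the lowest and mouse 13 the highest Nmrk2 value in both ventricles. The highest library of each group held 4.32 to 4.59 times the lowest. Per exonic length, mean Nmrk2 levels were 468 ± 209 RPKM (reads scaled to exon length and library total; SD, n = 6) in RV nPAB, 43.9 ± 23.7 (n = 5) in RV Sham, 247 ± 128 (n = 6) in LV nPAB and 48.1 ± 24.4 (n = 5) in LV Sham. The 2 nPAB groups overlapped each other, as did the 2 Sham groups. In RPKM the RV exceeded the LV in 5 of 6 nPAB mice, all but mouse 7, and in 1 of 5 Sham mice, mouse 11. The libraries numbered nPAB 6 and 7 are of opposite sex between ventricles, and without them it did so in 4 of 4 nPAB mice. Fewer or more cells of a type and less or more RNA per cell cannot be told apart in such bulk samples.

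Nmrk2 shares 270 exon bases with Atcayos, an annotated antisense transcript on the plus strand, and whether reads were counted by strand is not given in the sources used here. Atcayos had 336 to 586 normalized counts in RV nPAB against 225 to 394 in RV Sham, and 356 to 976 in LV nPAB against 243 to 377 in LV Sham. The Atcayos range lay below that of Nmrk2 in both nPAB groups and overlapped it in both Sham groups. Their part in the Nmrk2 count was not tested.

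**Figure D2:**
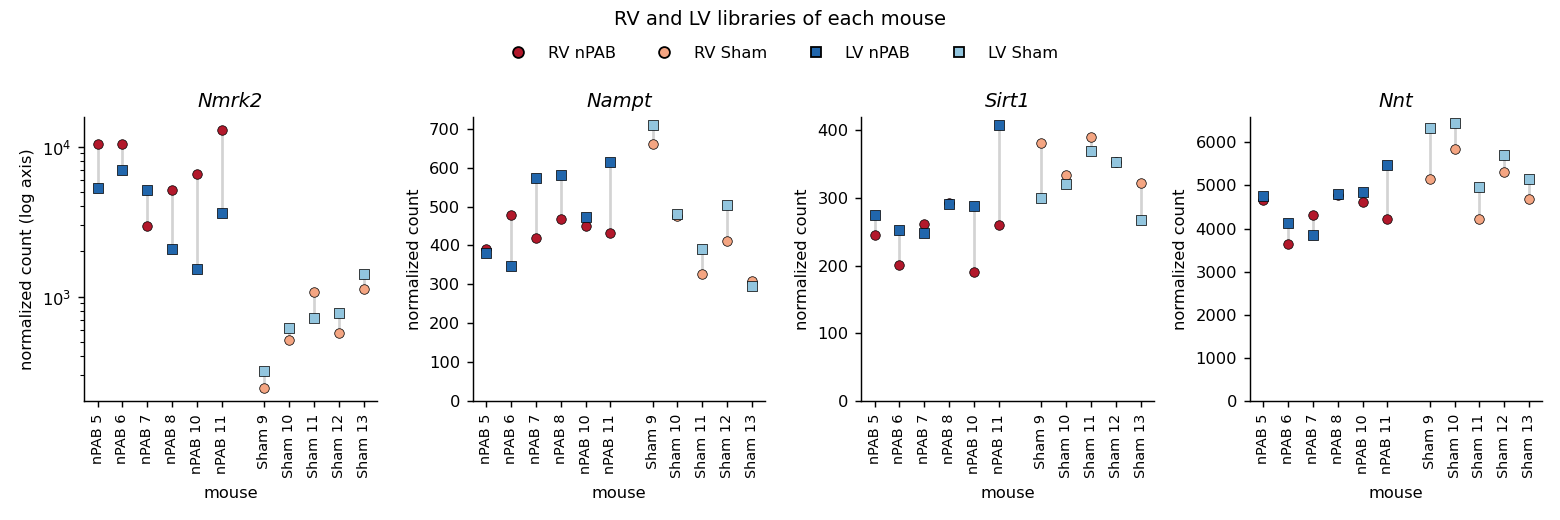
Normalized counts of Nmrk2 (log axis), Nampt, Sirt1 and Nnt in each mouse, with a circle for the RV library and a square for the LV library, nPAB mice left of Sham mice (each ventricle normalized on its own). For Nmrk2 all 6 nPAB mice stand above all 5 Sham mice, and for Sirt1 the RV circles of nPAB mice lie under those of Sham mice.

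Nmrk1 (ENSMUSG00000037847, chr19:18631950-18652428), the widely expressed riboside kinase, was low and did not pass the test in either ventricle. It had 34.7 to 86.4 normalized counts in RV nPAB (median 41.8) against 29.3 to 74.5 in RV Sham, and 18.1 to 68.9 in LV nPAB (median 32.9) against 13.6 to 70.1 in LV Sham. For Nmrk1 the log2 fold change was -0.32 (95% interval -0.92 to 0.28) in the RV and -0.08 (-0.90 to 0.74) in the LV. On the RPKM scale Nmrk2 made up a median of 99.7% of the summed level of both kinases in RV nPAB and 94.1% in RV Sham, and of 99.4% in LV nPAB and 97.7% in LV Sham. The median ratio of Nmrk2 to Nmrk1 was 290 in RV nPAB against 15.8 in RV Sham, with ranges of 102 to 596 and of 7.26 to 75.7. In the LV it was 222 in nPAB (101 to 560) against 41.8 in Sham (17.6 to 68.6). The ratio did not overlap between nPAB and Sham in either ventricle.

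Nampt (ENSMUSG00000020572, chr12:32819545-32853349, plus strand) differed little in its mean between nPAB and Sham. In the RV it had 391, 479, 419, 467, 449 and 431 normalized counts in nPAB mice 5, 6, 7, 8, 10 and 11, against 660, 477, 327, 412 and 310 in Sham mice 9, 10, 11, 12 and 13. The nPAB values lay inside the Sham range, with an SD of 32.6 in nPAB and of 141 in Sham, a difference in spread that was not tested. In the LV it had 381, 346, 574, 581, 474 and 614 in nPAB mice, against 708, 482, 392, 504 and 296 in Sham mice, in the same orders. Sham mouse 9 was the highest and Sham mouse 13 the lowest of all mice in both ventricles. Among Sham mice alone these are the reverse of their places for Nmrk2. For Nampt the log2 fold change was 0.06 (95% interval -0.26 to 0.38, limma adjusted p = 0.826) in the RV and 0.08 (-0.37 to 0.54, adjusted p = 0.855) in the LV. The intervals hold changes of up to 1.31-fold in the RV and 1.45-fold in the LV. The median ratio of Nmrk2 to Nampt in RPKM was 49.6 in RV nPAB against 3.78 in RV Sham, and 20.2 in LV nPAB against 4.23 in LV Sham. Its ranges did not overlap in the RV (19.3 to 81.1 in nPAB, 1.01 to 9.82 in Sham) and overlapped in the LV (8.78 to 55.2 in nPAB, 1.23 to 13.0 in Sham).

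Naprt (ENSMUSG00000022574, chr15:75890956-75894481), the nicotinic acid phosphoribosyltransferase, had 46.0 to 74.9 normalized counts in RV nPAB against 25.5 to 74.5 in RV Sham, and 39.0 to 66.5 in LV nPAB against 26.6 to 94.5 in LV Sham. Its log2 fold changes of 0.05 in the RV and -0.14 in the LV did not pass (adjusted p = 0.923 and 0.810). It shares 277 exon bases with Eef1d on the same strand.

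Nmnat1 (ENSMUSG00000028992, chr4:149467572-149485202), the nuclear enzyme of the last step, had 165 to 280 normalized counts in RV nPAB (median 211) against 206 to 321 in RV Sham. In the LV it had 151 to 243 in nPAB (median 210) against 202 to 296 in Sham, and all 6 nPAB libraries lay below the Sham median, though the groups overlapped. Its log2 fold change was -0.21 (95% interval -0.54 to 0.12) in the RV and -0.33 (-0.64 to -0.01) in the LV, where the unadjusted p was 0.0414 and the limma adjusted p 0.182. Nmnat3 (ENSMUSG00000032456, chr9:98287435-98420438), assigned to mitochondria in mouse, varied more than the groups differed. It had 34.7 to 144 in RV nPAB against 77.8 to 113 in RV Sham, and 37.5 to 120 in LV nPAB against 67.6 to 136 in LV Sham. Its log2 fold changes were -0.16 in the RV and -0.29 in the LV (limma adjusted p = 0.738 and 0.574), and the RV value changed sign to 0.07 without nPAB mouse 6 and to 0.22 without nPAB mice 6 and 7.

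**Figure D3:**
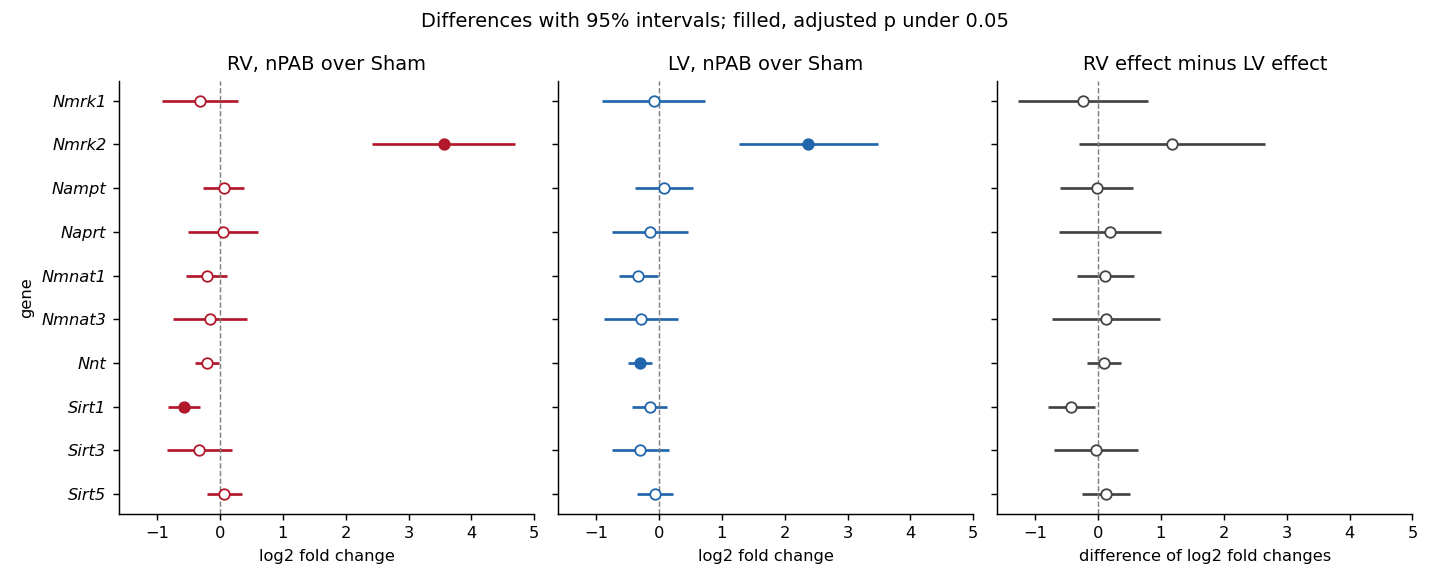
Log2 fold changes of nPAB over Sham in the RV and LV, and the RV effect minus the LV effect, with 95% intervals from limma; filled points passed the adjusted threshold of 0.05. Nmrk2 lies at 3.56 in the RV and 2.38 in the LV, Sirt1 at -0.57 in the RV and Nnt at -0.30 in the LV, and no gene passed in the difference in this fit.

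Nnt (ENSMUSG00000025453, chr13:119335448-119408997, minus strand) encodes the proton-driven transhydrogenase of the inner mitochondrial membrane, which makes the NADPH that regenerates glutathione. In the LV it had 4753, 4134, 3847, 4800, 4845 and 5469 normalized counts in nPAB mice 5, 6, 7, 8, 10 and 11, against 6334, 6432, 4964, 5693 and 5138 in Sham mice 9, 10, 11, 12 and 13. All 6 nPAB values lay below the Sham median, and nPAB mouse 11 overlapped the 2 lowest Sham mice. Its LV log2 fold change was -0.30 ± 0.09 (SE; 95% interval -0.49 to -0.11, limma adjusted p = 0.0465). This call was close to the threshold and held in 10 of 22 alternatives, with log2 fold changes of -0.36 to -0.20 and adjusted p of 0.0113 to 0.207. It was lost when any of Sham mice 9, 10 and 12 or nPAB mice 5, 6, 7, 8 and 10 was left out.

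In the RV Nnt had 4650, 3633, 4310, 4785, 4621 and 4232 normalized counts in nPAB mice, against 5150, 5837, 4224, 5313 and 4690 in Sham mice, in the same orders. All 6 nPAB values again lay below the Sham median, and the groups overlapped through Sham mice 11 and 13. The log2 fold change was -0.20 ± 0.09 (SE; 95% interval -0.39 to -0.02, limma adjusted p = 0.115). It passed when libraries were scaled by total reads (-0.30, adjusted p = 0.0166), a scaling that moved the median of all genes to -0.09, and without Sham mouse 11 (-0.26, adjusted p = 0.0451). The reference strain C57BL/6J carries a deletion within Nnt, so reads from the missing exons of CD1 transcripts have no place in mm10. A second Ensembl gene with the symbol Nnt, ENSMUSG00000116207, overlaps this one in 3339 exon bases and has no row in either table.

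Sirt1 (ENSMUSG00000020063, chr10:63319005-63381704, minus strand), which deacetylates histones and transcription regulators, had 245, 200, 261, 292, 191 and 259 normalized counts in the RV of nPAB mice 5, 6, 7, 8, 10 and 11. Sham mice 9, 10, 11, 12 and 13 had 380, 333, 390, 353 and 322. Every nPAB library lay below every Sham library. The means were 241 ± 38.8 in nPAB (SD, n = 6) and 356 ± 29.3 in Sham (SD, n = 5), and the log2 fold change was -0.57 ± 0.12 (SE; 95% interval -0.83 to -0.31, limma adjusted p = 0.00275). The call held in all 22 alternatives run, without nPAB mice 6 and 7 too.

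In the LV Sirt1 had 274, 252, 249, 291, 288 and 408 in nPAB mice against 300, 320, 369, 353 and 267 in Sham mice, in the same orders. The groups overlapped, and nPAB mouse 11 held the highest value of all. The log2 fold change was -0.14 (95% interval -0.42 to 0.14, limma adjusted p = 0.550). In RPKM, mean Sirt1 levels were 4.92 ± 0.822 in RV nPAB (SD, n = 6), 7.73 ± 0.715 in RV Sham (n = 5), 6.11 ± 1.00 in LV nPAB (n = 6) and 7.01 ± 0.926 in LV Sham (n = 5), and only RV nPAB and RV Sham did not overlap within a ventricle. Sirt1 shares 65 exon bases with the antisense transcript Gm16145.

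The mitochondrial sirtuins did not pass in either ventricle. Sirt3 (ENSMUSG00000025486, chr7:140863666-140882309), the main mitochondrial deacetylase, had 48.1 to 81.9 normalized counts in RV nPAB against 47.7 to 122 in RV Sham. In the LV it had 52.9 to 75.3 in nPAB against 47.7 to 104 in Sham, with all 6 nPAB libraries below the Sham median. Its log2 fold changes were -0.32 (95% interval -0.83 to 0.19) in the RV and -0.29 (-0.75 to 0.16) in the LV. It overlaps exons of Ric8a by 418 bases and of Psmd13 by 342 bases on the other strand. Sirt5 (ENSMUSG00000054021, chr13:43365496-43395203), a desuccinylase and demalonylase, had 194 to 287 in RV nPAB against 178 to 247 in RV Sham, and 156 to 265 in LV nPAB against 207 to 224 in LV Sham. Its log2 fold changes were 0.07 in the RV and -0.06 in the LV (limma adjusted p = 0.752 and 0.827).

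Whether the effect of banding differed between ventricles was tested as the RV log2 fold change minus that of the LV, in a fit of all 4 groups. In this fit none of the 10 genes passed, against 0.0374% of the 13364 genes tested (5 genes). Unadjusted p under 0.05 was found for 1 of the 10 and for 984 of all genes. For Sirt1 the difference was -0.43 ± 0.18 (SE; 95% interval -0.80 to -0.05), with unadjusted p = 0.0265 and limma adjusted p = 0.624. For Nmrk2 it was 1.18 ± 0.71 (SE; 95% interval -0.30 to 2.66, adjusted p = 0.771), an interval that holds both no difference and an RV rise 6.33 times that of the LV. With the replicate block, which pairs RV and LV libraries by mouse number, 148 genes (1.11%) passed in place of 5, and again none of the 10 (limma adjusted p = 0.359 for Nmrk2 and 0.232 for Sirt1). The numbers nPAB 6 and 7 each join libraries of opposite sex, so the block was also run without them, a choice made after the data were seen. It then called 501 genes (3.75%), of the 10 Nmrk2 alone, whose rise was larger in the RV by 1.73 on the log2 scale (adjusted p = 0.0211). Without these mice and without the block the same difference of 1.73 did not pass (adjusted p = 0.477). For Sirt1 the block without them gave -0.50 (adjusted p = 0.102). edgeR gave 3 genes and DESeq2 34, none of the 10 among them. For Nnt the difference was 0.10 (95% interval -0.18 to 0.37).

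**Figure D4:**
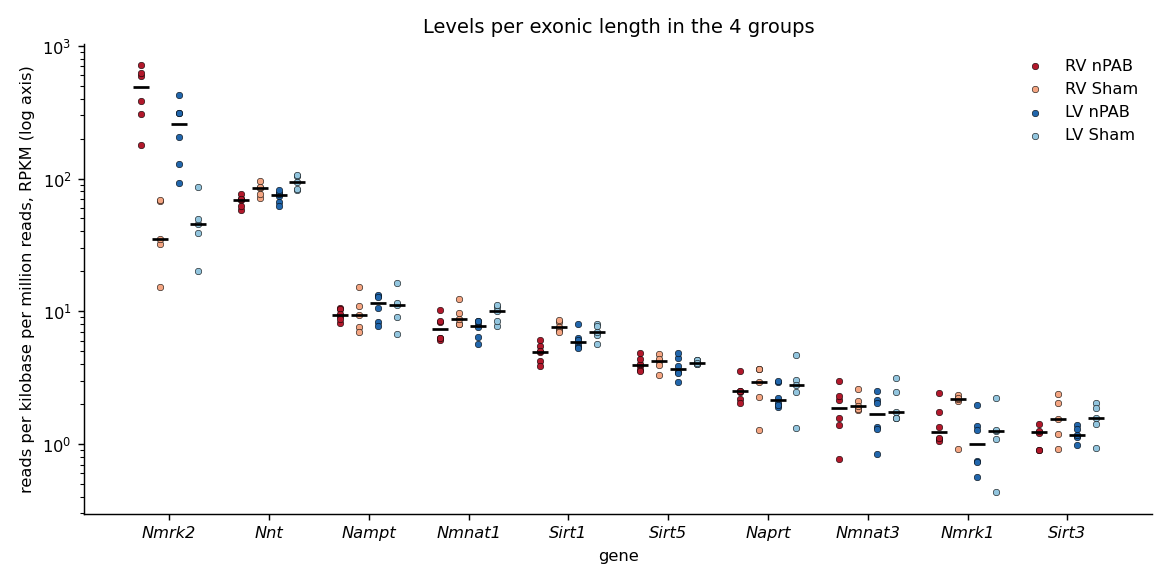
Levels of the 10 genes in RPKM (log axis), one point per library, with black lines at the group medians, in the groups RV nPAB, RV Sham, LV nPAB and LV Sham. By mean, Nmrk2 leads in both nPAB groups (468 and 247). In both Sham groups its mean stands below that of Nnt, with 43.9 and 48.1 against 83.0 and 94.2. The libraries of Nmrk2 and Nnt overlap in LV Sham.

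In RPKM, which divides by the length of all annotated exons, the order of the 10 genes was alike in the 4 groups. Nmrk2 and Nnt stood at the top, by mean Nmrk2 first in nPAB and Nnt first in Sham, followed by Nampt, Nmnat1, Sirt1, Sirt5, Naprt and Nmnat3, with Nmrk1 and Sirt3 last. In mean normalized counts Sirt3 stood above Naprt in each group, the reverse of this order, with 63.8 against 54.8 in RV nPAB. Exonic length is 5973 bases for Sirt3 and 2344 for Naprt. In LV Sham the RPKM ranges of Nnt (81.8 to 106) and Nmrk2 (20.1 to 86.8) overlapped. Mean Nnt levels were 67.5 ± 6.50 in RV nPAB (SD, n = 6), 83.0 ± 9.78 in RV Sham (n = 5), 73.3 ± 7.31 in LV nPAB (n = 6) and 94.2 ± 11.6 in LV Sham (n = 5). Nampt followed at 9.46 ± 0.906, 10.0 ± 3.27, 10.9 ± 2.44 and 10.9 ± 3.60 in the same order of groups. Between neighbours in this order the ranges over libraries did not overlap for 2 of 9 pairs in RV nPAB, 3 in RV Sham, 3 in LV nPAB and 2 in LV Sham, which leaves the order below Nampt within the spread for most pairs. Nnt was higher in the LV than in the RV in 5 of 6 nPAB mice (4 of 4 without numbers 6 and 7) and 5 of 5 Sham mice, in RPKM.

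The genes whose log2 values ran most like those of Nmrk2, by the mean of Pearson's r over the 11 RV and the 11 LV libraries taken over 10235 genes whose mean reached 50 in both tables, were Cox6a1, Mif, Smpx, Sorbs2 and Cox8a. Cox6a1, a subunit of cytochrome oxidase, had r of 0.97 in the RV and 0.99 in the LV. The libraries share the nPAB and Sham grouping and their depth, so these r values describe the libraries only. Of the 8 other genes described here that reached this mean, Nnt ran most opposite to Nmrk2, with r of -0.68 in the RV and -0.81 in the LV. Sirt1 came next, with -0.84 in the RV and -0.41 in the LV. Esam, Col6a2, Man1a, Asb11 and Carmil1 ran most like Nampt, with mean r of 0.74 to 0.79.

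A set of 47 other NAD pathway genes was examined beside these 10, of which 46 had a row in the tables. In the RV 34 were tested, 6 rose, 3 fell and 25 did not pass (median log2 fold change 0.10), so that 9 of 34 were called, near the 22.0% of all genes. In the LV 33 were tested, 1 rose, 0 fell and 32 did not pass (median 0.06), below the 9.31% of all genes, and 0 of 32 passed in the difference between ventricles. Among the synthesis enzymes, Nt5e, the ectonucleotidase that releases nucleosides such as nicotinamide riboside outside cells, had 206 to 775 normalized counts in RV nPAB against 120 to 160 in RV Sham, and 219 to 485 in LV nPAB against 130 to 218 in LV Sham. It rose in both ventricles, with log2 fold changes of 1.46 ± 0.25 in the RV (SE, limma adjusted p = 8.74e-04) and 1.02 ± 0.25 in the LV (adjusted p = 0.0182). Nadk2, the mitochondrial NAD kinase, had 90.1 to 220 in RV nPAB against 275 to 358 in RV Sham and fell there by 0.96 ± 0.18 on the log2 scale (adjusted p = 0.00108). In the LV it stood at 156 to 300 in nPAB against 265 to 329 in Sham (log2 fold change -0.45, adjusted p = 0.0761).

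**Figure D5:**
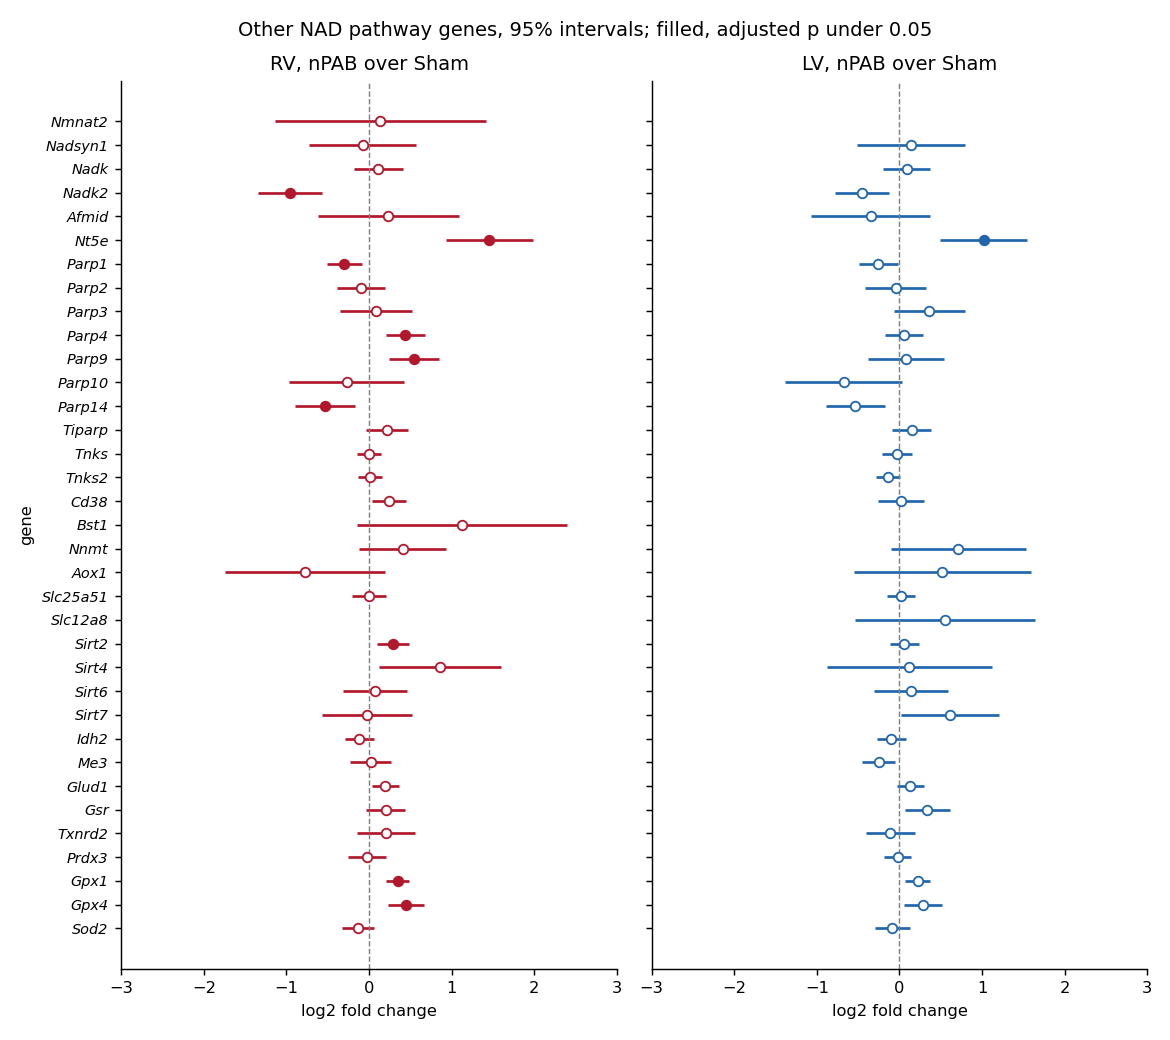
Log2 fold changes of nPAB over Sham with 95% intervals for the other NAD pathway genes tested in the RV (left) and the LV (right); filled points passed the adjusted threshold of 0.05, and a gene with no point was under the minimum mean of 10 in that table. In the RV 9 points are filled, from Nadk2 at -0.96 to Nt5e at 1.46, and in the LV only Nt5e is, at 1.02.

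Of 14 NAD consumers and nicotinamide-disposal genes tested in the RV, 2 rose and 2 fell, a share close to the 22.0% of all genes called there. The other sirtuins, with 1 of 4 called, and the partners of Nnt, with 2 of 9, were also near it. Parp4 and Parp9 rose by log2 0.44 and 0.54, and Parp1, the DNA-damage-activated ADP-ribosyltransferase, and Parp14 fell by 0.30 and 0.53 on the log2 scale (limma adjusted p = 0.00806, 0.0110, 0.0390 and 0.0345). Of 13 tested in the LV none passed. Of the 4 other sirtuins Sirt2, a mainly cytosolic deacetylase, rose in the RV, with 814 to 960 normalized counts in nPAB against 646 to 846 in Sham (log2 fold change 0.29, adjusted p = 0.0283), and none passed in the LV. Of the 9 mitochondrial redox genes listed as partners of Nnt, Gpx1 and Gpx4, the glutathione peroxidases, rose in the RV by log2 0.34 and 0.45 (adjusted p = 0.00132 and 0.00516). None of the 9 passed in the LV. The transporter list had 1 gene tested in the RV and 2 in the LV, and 0 passed. Qprt, Tdo2, Ido1, Ido2, Kmo, Kynu, Haao and Acmsd, which act on tryptophan or its products, were under a mean of 10 in both tables. Afmid, which also acts there, was tested and did not pass in either ventricle. It averaged 23.2 normalized counts in RV nPAB against 21.4 in RV Sham, and 22.4 in LV nPAB against 27.1 in LV Sham.

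Without nPAB mice 6 and 7, 10 of these other genes passed in the RV, the same 9 and Glud1, beside 2798 or 20.4% of all genes. In the LV 1 passed, which was Parp14, lower in nPAB, and no longer Nt5e, beside 668 or 4.93% of all genes. This comparison was added after the data were seen.

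Marker genes of other cell types moved in part with these results. The 7 mural cell markers summed to 2760 to 3439 RPM in RV nPAB against 3680 to 4429 in RV Sham and to 3036 to 3773 in LV nPAB against 3353 to 4165 in LV Sham. The members did not move alike. In the RV Abcc9, a potassium channel subunit that heart muscle also makes, had 5056 to 8377 normalized counts in nPAB against 9762 to 11870 in Sham and fell (log2 fold change -0.84), while Cspg4 rose (0.74). Rgs5, the most abundant of the 7 there, was at 0.18 and Pdgfrb at 0.12, neither passing, and the median of the 7 was -0.02. In the LV 0 rose and 1 fell, which was Abcc9. The 7 fibroblast markers summed to 2699 to 4367 in RV nPAB against 4072 to 5348 in RV Sham, with 0 rising and 2 falling, and to 2721 to 4542 in LV nPAB against 3374 to 3937 in LV Sham. The 7 atrial markers, whose sums stand with the sample description, had 1 rising and 0 falling in either ventricle, and that 1 was Nppa. In the RV the median log2 fold change of the 7 was 1.66. Myl4 was at 2.11 there, Bmp10 at 1.76, Myl7 at 1.66 and Sln at 1.33. Kcnj3 was at -0.92 and Stard10 at -0.93, and none of these other markers passed. In the LV, where 6 were tested, the median was -0.17. The 5 brown fat markers summed to 749 to 1001 in RV nPAB against 636 to 718 in RV Sham, and to 728 to 1103 in LV nPAB against 664 to 778 in LV Sham, with 1 rising and 0 falling in the RV. That 1 was Fabp4 (log2 fold change 0.40), at 6545 to 9412 normalized counts in RV nPAB against 5282 to 6004 in RV Sham. Cidea, the only other one tested, was at 0.20 in the RV and did not pass. Their defining genes Ucp1 and Adipoq were at 0 in 10 of 11 RV libraries each. The sums of endothelial, epicardial, macrophage and erythroid markers overlapped between nPAB and Sham in both ventricles. Of the 7 endothelial markers 0 rose and 1 fell in each ventricle, which was Tek (log2 fold change -0.68 in the RV and -0.47 in the LV). Of the erythroid markers Hbb-bt rose in the RV (0.64) and none passed in the LV, and no epicardial or macrophage marker passed in either. Of the 7 cardiomyocyte markers 2 rose and 3 fell in the RV, a larger share than the 22.0% of all genes called there. Actc1 (log2 fold change 0.47) and Mb (0.33) rose, and Pln (-0.64), Ryr2 (-0.32) and Tnni3 (-0.26) fell. In the LV 1 rose, Actc1 (0.32), and 0 fell, beside 9.31% of all genes called. The part of these marker differences in the results for Nmrk2, Sirt1, Nnt and the other NAD pathway genes was not tested.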

How the data were processed

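Bulk RNA from both ventricles was extracted with a Qiagen RNeasy Plus Mini kit and converted with a Revelo High Sensitivity kit, per the labels' protocols. Cutadapt, featureCounts, DESeq2 and mm10 appear in the submitters' processing notes. The aligner, tool versions and strand setting were not given in the sources used here. For each ventricle the authors deposited a table of a signal that is never negative. Per the labels it is the gene count over the DESeq2 size factor, set separately per table. In every library 100% of values were whole multiples of 1 read (tolerance 0.001). These reads gave depth, RPKM over GENCODE exonic length, and the edgeR and DESeq2 alternatives.

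Differences were tested in R 4.3.3 with limma 3.58.1 (lmFit and a robust, trended eBayes) on the log2 of each normalized value after adding 1. Genes needed a mean of 10. Tests were two-sided, p-values were adjusted over all genes by Benjamini-Hochberg, and 0.05 was the threshold. Fold changes on this scale understate low genes. RV and LV were fitted alone, and their difference in a fit of 4 groups. The 10 genes, the 5 NAD pathway lists and the 9 marker lists were chosen with earlier results of these data known. Named were all 10 genes, pathway genes by smallest p among those called (up to 10 in the RV and 6 in the LV), and the 5 genes most like Nmrk2 and Nampt. The p-values measure the spread between mice of unstated litters.

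By the titles, mouse numbers pair the RV and LV of an animal, but the libraries numbered nPAB 6 and 7 differ in sex between ventricles. Deviations of same-numbered libraries from their group means correlated at 0.132 to 0.383 in 9 mice, 0.172 in nPAB mouse 6 and 0.0548 in nPAB mouse 7, over 12899 genes. These 2 alone correlated more with another nPAB number (0.180 and 0.0844). Libraries within a group all differed beyond sampling noise (chi-square over its degrees of freedom at least 7.47). As alternatives, other pseudocounts, filters, scalings, variance settings, a sex term, the block and count tools (edgeR 4.0.16, DESeq2 1.42.0) were used, and mice were left out. Promoter windows came from RefSeq (GRCm38.p6). Figures used matplotlib 3.10.9.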

Additional observations from a re-analysis of the deposited data

Results flagged for a closer look

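Single libraries stood apart from the rest of their group in 3 of the 40 gene and group combinations examined, and chance flags about 1 in 20 such groups. The measure was the gap to the nearest other library as a share of the group's range, both on the log2 scale. Nmrk1 was at 29.3 normalized counts in the RV of Sham mouse 13, with the next lowest Sham library at 66.9. Naprt was at 74.9 in the RV of nPAB mouse 8, with the next highest nPAB library at 55.0. Sirt1 was at 408 in the LV of nPAB mouse 11, with the next highest nPAB library at 291.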

How the results depend on the processing

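The rise of Nmrk2 and the fall of Sirt1 in the RV passed in all 22 alternatives run, at log2 fold changes of 3.23 to 3.81 and of -0.66 to -0.50. The rise of Nmrk2 in the LV passed in 21 of 22, at 2.01 to 2.63, and was lost without nPAB mice 6 and 7. Of the 10 genes, 2 passed in the LV as reported, 1 with TMM scaling, 1 without variance trend or robust option, 1 with a sex term and 0 without nPAB mice 6 and 7, and 1 to 2 when single mice were left out, Nnt being the gene lost in the first 3. The number of all genes passing in the LV, 1260 as reported, was 739 without variance trend or robust option and 668 without nPAB mice 6 and 7. In the difference between ventricles it was 5 as reported, 1 without variance trend or robust option, 3 with edgeR, 34 with DESeq2, 80 without nPAB mice 6 and 7, 148 with the replicate block, 501 with the replicate block and nPAB mice 6 and 7 left out, and 0 to 10 when single mice were left out. The block with all mice changed no call of the 10 genes, and with nPAB mice 6 and 7 left out it called 1, Nmrk2, in place of 0. The cause of these changes was not tested. Among values that did not pass, the RV sign held in 18 of 22 alternatives for Nampt, 17 for Naprt, 20 for Nmnat3 and 21 for Sirt5, and the LV sign in 17 of 21 for Nmrk1 and in 21 of 22 for Nampt, Naprt and Sirt5 each. Scaling by total reads gave 33.6% of RV calls as higher in nPAB (1089 higher, 2151 lower), against 50.7% as reported, and 34.1% of LV calls (468 higher, 903 lower), against 51.1%, and moved the median of all genes to -0.09 and -0.07.

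Low counts limit Nmrk1, Naprt, Nmnat3 and Sirt3, whose group means lie between 36.8 and 90.8 normalized counts.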
